A study of Mus musculus with 22 samples.

Results

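The genes described here are 10 members of the p53 pathway and its surroundings in mouse colon, namely Trp53, Mdm2, Cdkn1a, Ccng1, Gadd45a, Gadd45b, Chek2, Ccne2, Bax and Apaf1. They were chosen by name, and every probe set that the array's annotation gives to one of them alone was used. In all, 8 of the 10 genes had such probe sets, 16 in number, among 18194 genes with at least 1. Trp53 and Bax were not analysed here. All 8 genes were among the 9097 genes tested, which are the more variable 50% by interquartile range, so none was left out for a low spread. The main value of a gene comes from whichever of its probe sets had the widest interquartile range over the arrays.

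p53, the product of Trp53, is a transcription factor that is held low by the ubiquitin ligase Mdm2 and is stabilised when DNA is damaged. Checkpoint kinases such as Chek2 pass that damage signal on. Targets of p53 then stop the cell cycle, as Cdkn1a and Gadd45a do, or set off cell death. The latter runs through Bax at the mitochondria and Apaf1, the scaffold of the apoptosome that activates caspases. Ccng1 is a p53 target as well, and Gadd45b is of the same family as Gadd45a. Ccne2, a cyclin E, works against arrest, driving cells into S phase. In the colon these genes act in an epithelium that divides at the crypt base and sheds cells at the surface, and damage to that epithelium brings leukocytes into the tissue.

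All mice carried floxed PPAR γ alleles (PPAR γ fl/fl). VC+ mice also carried Villin Cre, a recombinase driven by a promoter of intestinal epithelial cells, meant to delete PPAR γ in those cells alone, whereas VC- mice lacked the recombinase. Colitis was induced by drinking water that held dextran sodium sulfate (DSS) at 2.5%, which injures the colonic epithelium. The 22 arrays came from VC+ mice (3 before DSS, 5 after 2 days of it and 4 after 7 days) and from VC- mice (3, 3 and 4 at the same times), and the time before DSS is called day 0. The study used mice of a mixed FVB/C57BL/6 background and a backcrossed line, and background, age and sex of single arrays are not given in the labels used here. The labels name colonic mucosa, while the methods describe RNA of homogenized colonic tissue, and 7 of 7 smooth muscle markers were measured in it at mean levels of 9.69 to 12.21. The values are log2 signals after GC-RMA, in which 1 unit is a doubling, and changes are differences of group means on that scale.

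The targeted gene Pparg was represented by 1 probe set, whose place relative to the deleted part is not given in the sources used here. At day 0 its log2 signal was 8.62, 8.50 and 8.83 in VC+ mice and 9.63, 9.58 and 9.61 in VC- mice, and at day 2 it was 6.91, 9.54, 8.27, 6.87 and 6.96 in VC+ mice and 9.87, 10.25 and 10.96 in VC- mice. At day 7 it was 10.35, 10.08, 8.54 and 6.26 in VC+ mice and 9.82, 7.39, 8.38 and 8.57 in VC- mice. VC+ arrays lay under VC- arrays at days 0 and 2, while at day 7 the genotypes overlapped and replicates 1 and 2 of VC+ mice were above every VC- array, so that VC+ and VC- stand at that day for the labelled genotypes only. No genotype difference of Pparg passed the test (limma, adjusted p = 0.934, 0.242 and 0.862 at days 0, 2 and 7). A few arrays stood apart. Prss2, a pancreatic trypsinogen, was at 11.20 on VC+ day 7 replicate 4, 14.74 on VC- day 7 replicate 2 and 13.77 on VC- day 0 replicate 3, and at 3.27 to 4.20 on all other arrays. VC- day 7 replicate 2 also had a mean level of the 14 colonocyte markers of 9.22, against 11.29 to 12.55 on all other arrays. Hoxb13, a homeobox gene of the posterior colon, ranged over 2.86 to 12.42 and was uneven between groups compared here. It was at 3.81, 2.86, 3.03 and 9.62 in VC- mice at day 7, against 7.29, 9.13 and 9.67 at day 0, and at 3.10, 3.31, 3.07 and 6.88 in VC+ mice at day 7, against 12.42, 3.09 and 2.88 at day 0. At day 2 it was at 12.42, 3.07, 9.45, 10.44 and 11.19 in VC+ mice and at 3.08, 2.95 and 2.88 in VC- mice. Day 7 against day 2 in VC+ mice, and VC+ against VC- mice at day 2, were thus uneven in Hoxb13 as well. Xist, the X inactivation RNA of female cells, was high on arrays of days 0 and 2 only. Beside each call of a member, the arrays of the compared groups whose removal ended it are named.

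The start regions of 4 genes that passed at day 7 (Chek2, Ccng1, Gadd45b and Apaf1), and of Cdkn1a as a p53 target, are shown for the motifs they hold. RefSeq windows of 300 bases (250 before and 50 from the start site, build GRCm38.p6) were matched for 9 of the 10 genes, all but Ccne2, and Cdkn1a has 2 of them. Each is written along the strand of its gene, and capitals mark matches on either strand to TTTNNCGC (an E2F motif), CCAAT, GGGANTTTCC (an NF-κB motif) or the p53 decamer, a unit that p53 response elements repeat.
Chek2, chr5:110839733-110840032, plus strand: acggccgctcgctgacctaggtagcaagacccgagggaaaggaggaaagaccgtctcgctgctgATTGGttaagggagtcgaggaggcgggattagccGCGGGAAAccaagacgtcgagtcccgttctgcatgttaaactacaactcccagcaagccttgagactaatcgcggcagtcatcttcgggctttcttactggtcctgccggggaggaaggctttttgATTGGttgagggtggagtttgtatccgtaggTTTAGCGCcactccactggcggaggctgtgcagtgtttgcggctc
Ccng1, chr11:40755237-40755536, minus strand: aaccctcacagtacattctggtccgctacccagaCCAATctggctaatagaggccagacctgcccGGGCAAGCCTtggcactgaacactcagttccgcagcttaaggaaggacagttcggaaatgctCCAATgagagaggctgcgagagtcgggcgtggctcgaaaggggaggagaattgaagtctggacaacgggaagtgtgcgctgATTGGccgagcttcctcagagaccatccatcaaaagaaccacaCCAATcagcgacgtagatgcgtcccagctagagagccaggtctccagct
Gadd45b, chr10:80929841-80930140, plus strand: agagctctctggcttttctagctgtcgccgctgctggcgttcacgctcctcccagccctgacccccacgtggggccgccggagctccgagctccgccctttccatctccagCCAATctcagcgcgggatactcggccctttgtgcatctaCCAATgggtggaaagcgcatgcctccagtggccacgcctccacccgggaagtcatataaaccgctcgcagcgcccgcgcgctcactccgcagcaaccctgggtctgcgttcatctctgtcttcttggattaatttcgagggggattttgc
Apaf1, chr10:91082694-91082993, minus strand: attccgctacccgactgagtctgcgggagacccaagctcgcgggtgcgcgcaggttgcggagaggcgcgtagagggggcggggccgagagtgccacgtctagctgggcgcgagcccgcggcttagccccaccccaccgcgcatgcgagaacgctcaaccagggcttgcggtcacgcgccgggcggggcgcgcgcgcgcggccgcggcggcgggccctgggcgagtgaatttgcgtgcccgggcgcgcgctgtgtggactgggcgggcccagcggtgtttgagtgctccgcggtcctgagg
Cdkn1a, chr17:29090729-29091028, plus strand: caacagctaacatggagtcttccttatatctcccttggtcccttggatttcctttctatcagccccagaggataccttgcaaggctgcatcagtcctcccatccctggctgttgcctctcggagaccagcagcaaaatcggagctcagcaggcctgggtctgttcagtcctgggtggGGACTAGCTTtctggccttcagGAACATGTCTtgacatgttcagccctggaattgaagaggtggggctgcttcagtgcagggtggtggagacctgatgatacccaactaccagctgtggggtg

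The Chek2 window held 2 E2F motifs, at bases -152 and 6 from the start site, and 2 CCAAT boxes. Of all 32851 windows in the table, 5.17% held the E2F motif and 37.4% a CCAAT box. The Ccng1 window held 4 CCAAT boxes and the p53 decamer at base -185. The Gadd45b window held 2 CCAAT boxes and no match to the NF-κB motif, which 0.411% of all windows had. The Apaf1 window held no match to any of the 4 motifs. The upstream Cdkn1a window held the p53 decamer at bases -73 and -51, and 8.36% of all windows held at least 1. The decamer was also found once each in the windows of Trp53, Mdm2, Gadd45a and Bax. These matches describe the letters in the windows only.

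**Figure D1:**
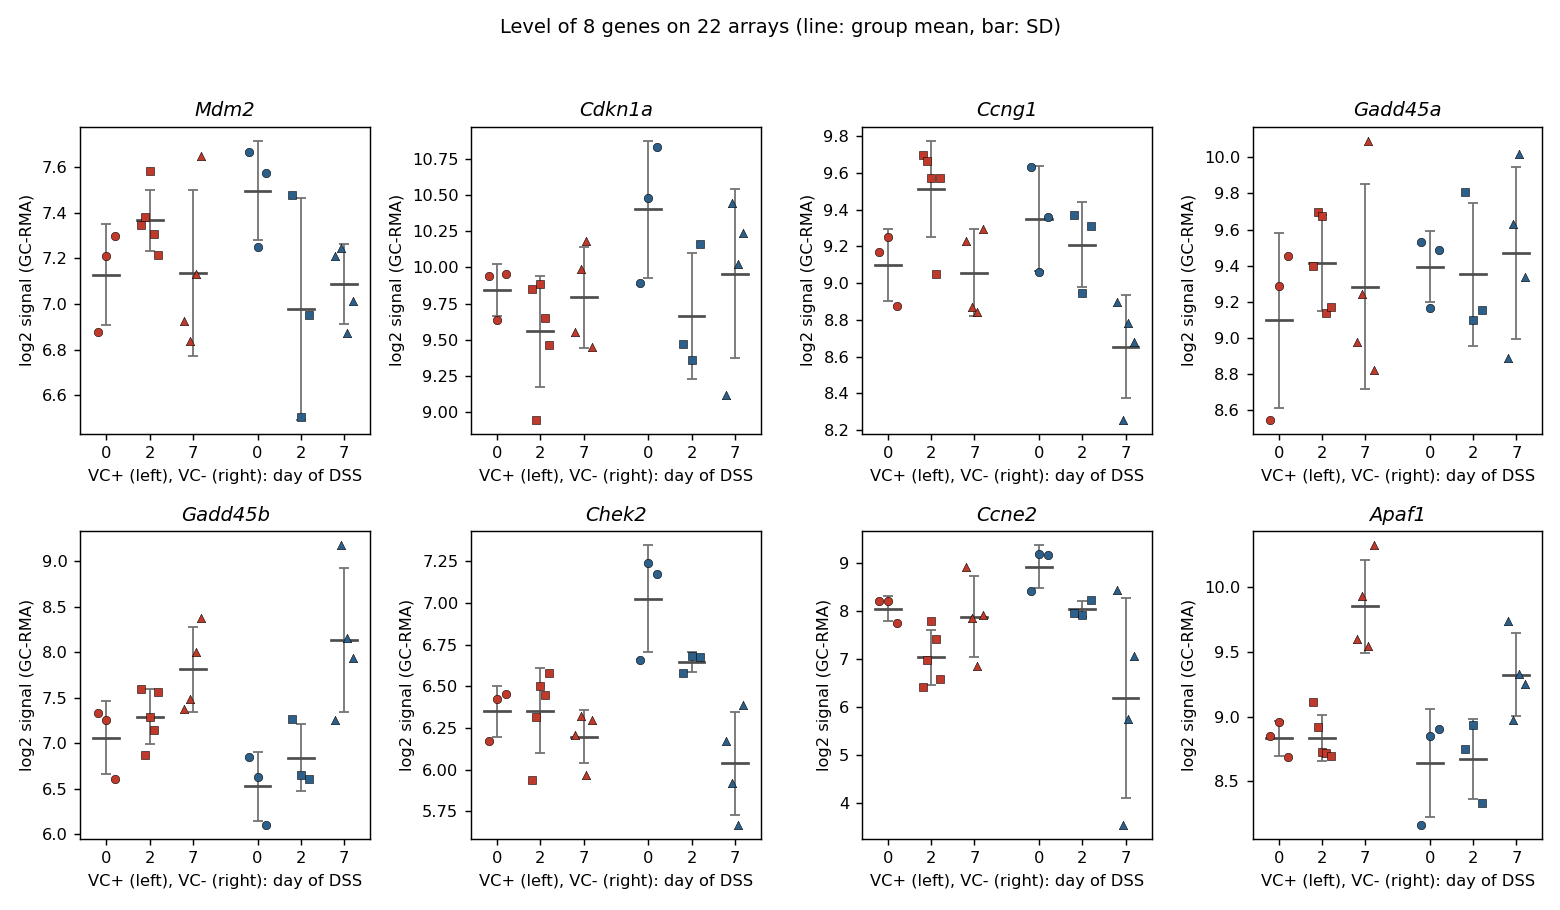
Log2 GC-RMA signal (vertical axes) of the 8 genes on each of the 22 arrays, by day of DSS (horizontal axes), with VC+ mice in red on the left and VC- mice in blue on the right. Points are arrays, lines are group means and bars are SDs. Apaf1 at day 7 lies at 9.55 to 10.32 in VC+ mice, and Ccne2 at day 7 spreads from 3.54 to 8.44 in VC- mice.

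Apaf1 was the member whose rise at day 7 passed the test in VC+ mice. In VC+ mice its log2 signal was 8.85, 8.95 and 8.69 at day 0, then 9.11, 8.92, 8.72, 8.72 and 8.69 at day 2, and 9.60, 9.94, 9.55 and 10.32 at day 7. All 4 day 7 arrays lay above all 8 earlier ones, with replicate 4 the highest. The rise was 1.02 ± 0.24 (SE) against day 0, a 2.03-fold increase (adjusted p = 0.0336, limma), and 1.02 ± 0.21 against day 2 (adjusted p = 0.00901). In VC- mice Apaf1 was at 8.16, 8.85 and 8.91 at day 0, at 8.75, 8.93 and 8.33 at day 2, and at 9.74, 8.97, 9.33 and 9.25 at day 7. Each day 7 array was again above each earlier one, with replicate 2 only just above the highest of day 2, and the differences of 0.68 ± 0.24 against day 0 (adjusted p = 0.0677) and 0.65 ± 0.24 against day 2 (adjusted p = 0.0930) did not pass. Against day 0, 1 of the 8 genes passed in VC+ mice, where 1.75% of the genes tested did (1.32% higher). Against day 2 it was again 1 of 8, where 7.58% did (4.76% higher and 2.83% lower).

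The Apaf1 call against day 2 in VC+ mice passed under all 35 alternative settings, with adjusted p between 0.000297 and 0.0446. The call against day 0 passed under 25 of 35. It was lost without any 1 of the 3 day 0 arrays of VC+ mice (adjusted p = 0.0915, 0.0945 and 0.173), without VC+ day 7 replicate 2 (0.0704) or replicate 4 (0.144), and without the 3 arrays with high Prss2 (0.0548). It also missed the threshold with no variance filter (0.0531), with only the groups compared (0.118) and with Xist as a covariate (0.0678), among others. The change itself stayed between 0.86 and 1.12 over these settings. Markers of macrophages and monocytes moved with the same groups. Their mean level over 12 genes was 7.10 to 7.31 in VC+ mice at day 0, 7.60 to 8.16 at day 2 and 8.51 to 10.21 at day 7. At day 7 against day 0, 4 of 12 rose, where 1.32% of the genes tested were higher. In bulk tissue, more cells of a type and more RNA per cell cannot be told apart, and the part of these cells in the change of Apaf1 was not tested. On VC- day 7 replicate 2, where the macrophage markers averaged 10.59, the highest of all arrays, Apaf1 was at 8.97, the lowest of the 4 VC- day 7 arrays.

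Gadd45b is a stress-induced protein of the Gadd45 family that acts on stress kinase signaling and is a known NF-κB target. It was the member whose rise at day 7 passed the test in VC- mice. Its log2 signal there was 6.84, 6.63 and 6.10 at day 0, then 7.27, 6.65 and 6.61 at day 2, and 7.26, 9.18, 8.16 and 7.94 at day 7. All day 7 arrays were above all day 0 arrays, while replicate 1, at 7.26, lay just under the highest day 2 array. The rise was 1.61 ± 0.36 against day 0, or 3.05-fold (adjusted p = 0.0144), and 1.29 ± 0.36 against day 2 (adjusted p = 0.0446). In VC+ mice Gadd45b was at 7.33, 7.25 and 6.60 at day 0, at 7.60, 6.87, 7.28, 7.14 and 7.57 at day 2, and at 7.38, 7.49, 8.01 and 8.38 at day 7. There, day 7 lay above day 0 on every array but not by more than the test allowed, at 0.75 ± 0.36 (adjusted p = 0.371).

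The rise of Gadd45b against day 0 in VC- mice passed under 32 of 35 settings and was 1.26 without VC- day 7 replicate 2 (adjusted p = 0.0339). It no longer passed without VC- day 0 replicate 3 (1.40, adjusted p = 0.0948), without the 3 arrays with high Prss2 (1.05, adjusted p = 0.112) or when the fit held only the day 0 and day 7 arrays of VC- mice (adjusted p = 0.247). The call against day 2 passed under 10 of 35, and in only 4 of 22 fits with 1 array left out. The change was 0.94 without VC- day 7 replicate 2 (adjusted p = 0.113) and 0.94 without the 3 arrays with high Prss2 (0.0777). It was also lost without VC- day 7 replicate 3 (0.0645) or replicate 4 (0.0695) and without VC- day 2 replicate 2 (0.142) or replicate 3 (0.176). Macrophage and monocyte markers averaged 7.96, 10.59, 9.26 and 9.41 on the 4 VC- day 7 arrays, against 7.25 to 7.55 at day 0. Of these markers 9 of 12 rose, where 5.53% of the genes tested were higher. The array with the highest Gadd45b was also the one with the highest macrophage level, and the one with the lowest Gadd45b had the lowest. Neutrophil markers averaged 5.13 to 9.34 over 7 genes at day 7, against 3.34 to 3.36 at day 0. Their part in the change of Gadd45b was not tested.

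Chek2, the kinase that relays the damage signal from ATM to p53 and to the cell cycle phosphatases, fell in VC- mice. It was at 6.66, 7.24 and 7.17 at day 0, at 6.58, 6.68 and 6.67 at day 2, and at 6.17, 5.92, 5.67 and 6.39 at day 7. The day 7 arrays did not overlap with either earlier day. The change was -0.99 ± 0.20 against day 0, or 1.98-fold lower (adjusted p = 0.00919), and -0.61 ± 0.20 against day 2 (adjusted p = 0.0738). In VC+ mice Chek2 was at 6.17, 6.42 and 6.45 at day 0, at 5.94, 6.31, 6.50, 6.45 and 6.58 at day 2, and at 6.21, 6.32, 5.97 and 6.30 at day 7, so that the 3 days overlapped (-0.15 ± 0.20, adjusted p = 0.820).

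Ccne2 had the widest range of the members. In VC- mice it was at 8.43, 9.19 and 9.18 at day 0, at 7.97, 7.92 and 8.24 at day 2, and at 8.44, 3.54, 5.74 and 7.06 at day 7. The day 7 arrays of this group lay far apart, with replicate 1 inside the day 0 range and replicate 2 lowest of all 22 arrays. The mean fell by 2.74 on the log2 scale (SE 0.74, adjusted p = 0.0307), or 6.66-fold, against day 0. In VC+ mice Ccne2 was at 8.20, 8.21 and 7.75 at day 0, at 6.41, 6.99, 7.80, 7.43 and 6.59 at day 2, and at 8.93, 7.85, 6.85 and 7.92 at day 7. Here the mean was lowest at day 2, at 7.04 ± 0.57 (SD, n = 5), and neither the difference of -1.01 ± 0.71 (SE) from day 0 (adjusted p = 0.916) nor that of 0.85 ± 0.65 between days 7 and 2 (adjusted p = 0.478) passed.

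The call of Chek2 in VC- mice held under 31 of 35 settings. It was lost without VC- day 0 replicate 2 (adjusted p = 0.0502) or replicate 3 (0.0604), without the 3 arrays with high Prss2 (0.0860) and with only the groups compared (0.247). The change of Chek2 stayed between -1.17 and -0.86. Ccne2 passed under 26 of 35. Its change was -1.85 without VC- day 7 replicate 2 (adjusted p = 0.0600) and -3.48 without replicate 1 (adjusted p = 0.00133), and it did not pass without VC- day 7 replicate 3 (0.0631) or without VC- day 0 replicate 2 (0.0947) or replicate 3 (0.118). Without the 3 arrays with high Prss2, Ccne2 changed by -1.73 (adjusted p = 0.187). It also missed the threshold with no variance filter (0.0586), with only the groups compared (0.297) and with Hoxb13 as a covariate (0.0672). The mean level of 33 DNA replication genes on the VC- day 7 arrays was 7.02, 5.79, 5.84 and 6.21, against 6.98 to 7.46 at day 0, so that the array with the highest Ccne2 had the highest replication level and the array with the lowest Ccne2 the lowest. Chek2 did not follow this order, since replicate 1 had 6.17 and replicate 4 had 6.39. Colonocyte markers on the same arrays were at 12.11, 9.22, 11.71 and 12.30, and their part in these changes was not tested.

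Ccng1, a cyclin that is a direct p53 target, fell slightly in VC- mice. Its level was 9.63, 9.06 and 9.36 at day 0, 9.37, 8.95 and 9.31 at day 2, and 8.90, 8.26, 8.78 and 8.68 at day 7. All day 7 arrays were under all earlier ones. The change was -0.70 ± 0.21 against day 0, or 1.62-fold lower (adjusted p = 0.0452), and -0.56 ± 0.21 against day 2 (adjusted p = 0.104). The call passed under only 12 of 34 settings, and in 7 of 22 fits with 1 array left out. The change was -0.56 without VC- day 7 replicate 2 (adjusted p = 0.112), -0.56 without the 3 arrays with high Prss2 (0.242) and -0.56 without VC- day 0 replicate 1 (0.144). The call was also lost without VC- day 0 replicate 2 (0.0630) or replicate 3 (0.143), without VC- day 7 replicate 3 (0.0649) or replicate 4 (0.0698) and with Hoxb13 as a covariate (0.0852). In VC+ mice Ccng1 was at 9.17, 9.25 and 8.88 at day 0, at 9.70, 9.67, 9.57, 9.05 and 9.57 at day 2, and at 9.23, 8.87, 8.84 and 9.29 at day 7. Apart from replicate 4, the day 2 arrays of VC+ mice were above all other arrays of this genotype, with a difference of 0.41 ± 0.20 from day 0 (adjusted p = 0.762).

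In VC- mice at day 7 against day 0, 4 of the 8 genes therefore passed, 1 higher and 3 lower, where 10.6% of the genes tested passed (5.53% higher and 5.06% lower). The same genes stand in the list of p53 pathway genes that the study drew from this contrast on these arrays, so the count is not independent evidence. Against day 2, 1 of 8 passed in VC- mice, where 5.61% of the genes tested did (3.45% higher and 2.15% lower).

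**Figure D2:**
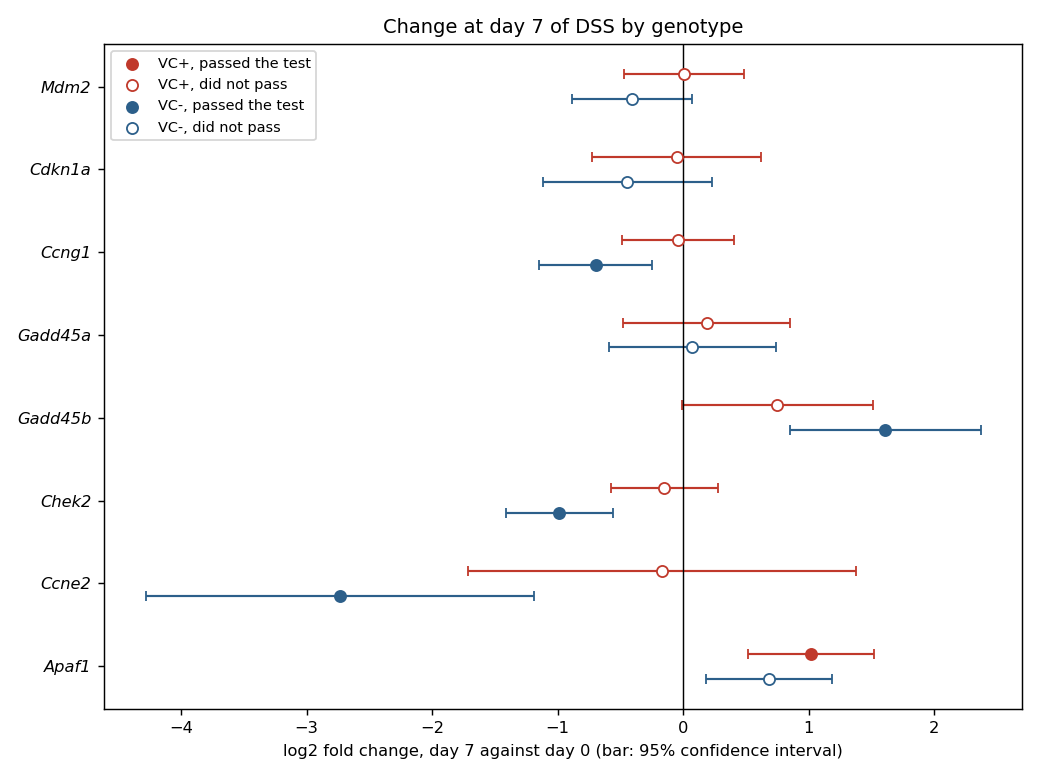
Log2 fold change at day 7 against day 0 (horizontal axis) of the 8 genes (rows), with VC+ mice in red above VC- mice in blue. Bars are 95% confidence intervals, and filled points passed the test at an adjusted p of 0.05. Apaf1 is filled in VC+ mice, and Ccng1, Gadd45b, Chek2 and Ccne2 are filled in VC- mice.

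Cdkn1a, Gadd45a and Mdm2, the arrest and feedback genes most often read as p53 targets, passed in no comparison. Cdkn1a, which encodes the cyclin-dependent kinase inhibitor p21, was at 9.94, 9.64 and 9.96 at day 0, at 9.85, 8.95, 9.88, 9.65 and 9.46 at day 2 and at 9.55, 9.99, 10.18 and 9.45 at day 7 in VC+ mice. In VC- mice it was at 9.89, 10.48 and 10.83 at day 0, at 9.47, 9.36 and 10.16 at day 2 and at 9.12, 10.44, 10.03 and 10.24 at day 7. The days overlapped in both genotypes. At day 7 against day 0 the 95% confidence interval of its change was -0.72 to 0.62 in VC+ mice and -1.12 to 0.23 in VC- mice.

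Gadd45a ranged over 8.55 to 10.09 in VC+ mice and 8.89 to 10.02 in VC- mice, with group means between 9.10 and 9.47, and its intervals at day 7 were -0.48 to 0.85 in VC+ mice and -0.59 to 0.74 in VC- mice. Mdm2 ranged over 6.84 to 7.65 in VC+ mice and 6.51 to 7.67 in VC- mice, with intervals of -0.47 to 0.48 in VC+ mice and -0.89 to 0.07 in VC- mice. The intervals leave room for changes in either direction for each of the 3 genes.

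At day 2, 0 of the 8 genes passed against day 0 in either genotype (limma), where 0.055% of the genes tested passed in VC+ mice and 0.011% in VC- mice. The unadjusted p was under 0.05 for 6.57% of the genes tested in VC+ mice and 4.58% in VC- mice. Of the 8 genes it was so for 0 in VC+ mice and 2 in VC- mice. These were Cdkn1a, with a mean of 9.66 ± 0.43 at day 2 and 10.40 ± 0.48 at day 0 (SD, n = 3 each) and a difference of -0.74 ± 0.34 (SE), and Mdm2, with 6.98 ± 0.49 at day 2 and 7.50 ± 0.22 at day 0 and a difference of -0.52 ± 0.24. Both had an adjusted p of 1.00 and their day 2 arrays overlapped with day 0. In VC+ mice Mdm2 averaged 7.37 ± 0.13 at day 2 (n = 5) and 7.13 ± 0.22 at day 0 (n = 3). On this main probe set the 2 genotypes thus moved in opposite directions, and the test of that difference gave 0.75 ± 0.33 (SE, adjusted p = 0.705). Probe set 1423605_a_at of Mdm2, of higher signal, did not share this movement. It changed by -0.11 ± 0.09 in VC+ mice and 0.09 ± 0.10 in VC- mice.

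Set against each other on the same day, VC+ and VC- mice differed in 0 of the 8 genes at day 0, day 2 or day 7 by limma, where 0.011%, 0.044% and 0% of the genes tested passed. At an unadjusted p under 0.05 there were 1, 0 and 2 such genes, where 6.6%, 12.3% and 14.2% of the genes tested were under it. At day 0 this was Chek2, at 6.17, 6.42 and 6.45 in VC+ mice and 6.66, 7.24 and 7.17 in VC- mice. All VC+ arrays lay under all VC- arrays, and the difference was -0.68 ± 0.22 (adjusted p = 0.609). At day 7 these were Ccne2, which was 1.69 ± 0.68 higher in VC+ mice (adjusted p = 0.314, range 6.85 to 8.93 in VC+ mice and 3.54 to 8.44 in VC- mice), and Apaf1, which was 0.53 ± 0.22 higher (adjusted p = 0.320, range 9.55 to 10.32 in VC+ mice and 8.97 to 9.74 in VC- mice). Without VC- day 7 replicate 1 the difference of Ccne2 was 2.44 and passed (adjusted p = 0.0184), and without replicate 2 it was 0.81 (adjusted p = 0.768).

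The response to DSS itself was compared between the genotypes by the interaction, the change in VC+ mice minus that in VC- mice. Of the 8 genes 0 passed at day 2 or at day 7 (limma), where 0.022% and 0% of the genes tested passed. The unadjusted p was under 0.05 for 6.46% and 8.48% of the genes tested, and for 1 and 3 of the 8. At day 7 the largest of them were 2.57 ± 1.04 for Ccne2 (95% confidence interval 0.38 to 4.76, adjusted p = 0.580), 0.84 ± 0.29 for Chek2 (0.23 to 1.44, adjusted p = 0.580) and 0.66 ± 0.30 for Ccng1 (0.02 to 1.29, adjusted p = 0.583). For Apaf1 and Gadd45b it was 0.34 ± 0.34 (adjusted p = 0.740) and -0.86 ± 0.51 (adjusted p = 0.624). A gene that passed in one genotype and not in the other is therefore not shown to respond differently between them.

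Several members had more than 1 probe set, and these did not always move alike. The other Apaf1 probe set, 1450223_at, was at 5.45, 5.69, 5.10 and 6.04 in VC+ mice at day 7, against 4.62, 4.71 and 4.68 at day 0. In VC- mice it was at 5.02, 4.66, 4.66 and 4.67 at day 7, against 4.52, 4.70 and 4.69 at day 0. On this probe set all VC+ day 7 arrays were above all VC- day 7 arrays, with replicate 1 the highest of the VC- arrays. In a fit over 34958 single-gene probe sets its rise in VC+ mice was 0.90 ± 0.15 (adjusted p = 0.0153) and its change in VC- mice 0.11 ± 0.15 (adjusted p = 0.610), and the difference between VC+ and VC- mice at day 7 was 0.82 ± 0.14 (unadjusted p = 2.11e-05, adjusted p = 0.185).

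The other Gadd45b probe set with signal, 1449773_s_at, was at 6.55, 9.30, 7.56 and 7.69 in VC- mice at day 7, against 6.15, 6.27 and 6.58 at day 0, and changed by 1.44 ± 0.43 (adjusted p = 0.0869). As on the main probe set, replicate 2 was the highest and replicate 1 the lowest of the day 7 arrays. For Ccng1 the main probe set changed most, and 1420827_a_at and 1450017_at changed by -0.33 ± 0.18 and -0.32 ± 0.19 in VC- mice. In the fit over all single-gene probe sets (limma), the main one (adjusted p = 0.0656) and 1420827_a_at (0.259) did not pass. On these other probe sets day 7 overlapped with the earlier days in VC- mice, replicate 1 of day 7 being at 12.20 and 10.22. One probe set each of Gadd45b (1420197_at) and Mdm2 (1457929_at) stayed near the bottom of the scale, with means of 1.87 and 2.29 over all arrays. The remaining Mdm2 probe set, 1423605_a_at, stayed within 8.82 to 9.42 on all arrays. The other Cdkn1a probe set, 1421679_a_at, changed by -0.03 ± 0.39 in VC- mice at day 7 against day 0, and the main one by -0.44 ± 0.32. Against day 2 the changes there were 0.80 ± 0.39 (limma, adjusted p = 0.165) and 0.29 ± 0.32. In VC+ mice at day 7 against day 0 they were 0.09 ± 0.39 and -0.05 ± 0.32.

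**Figure D3:**
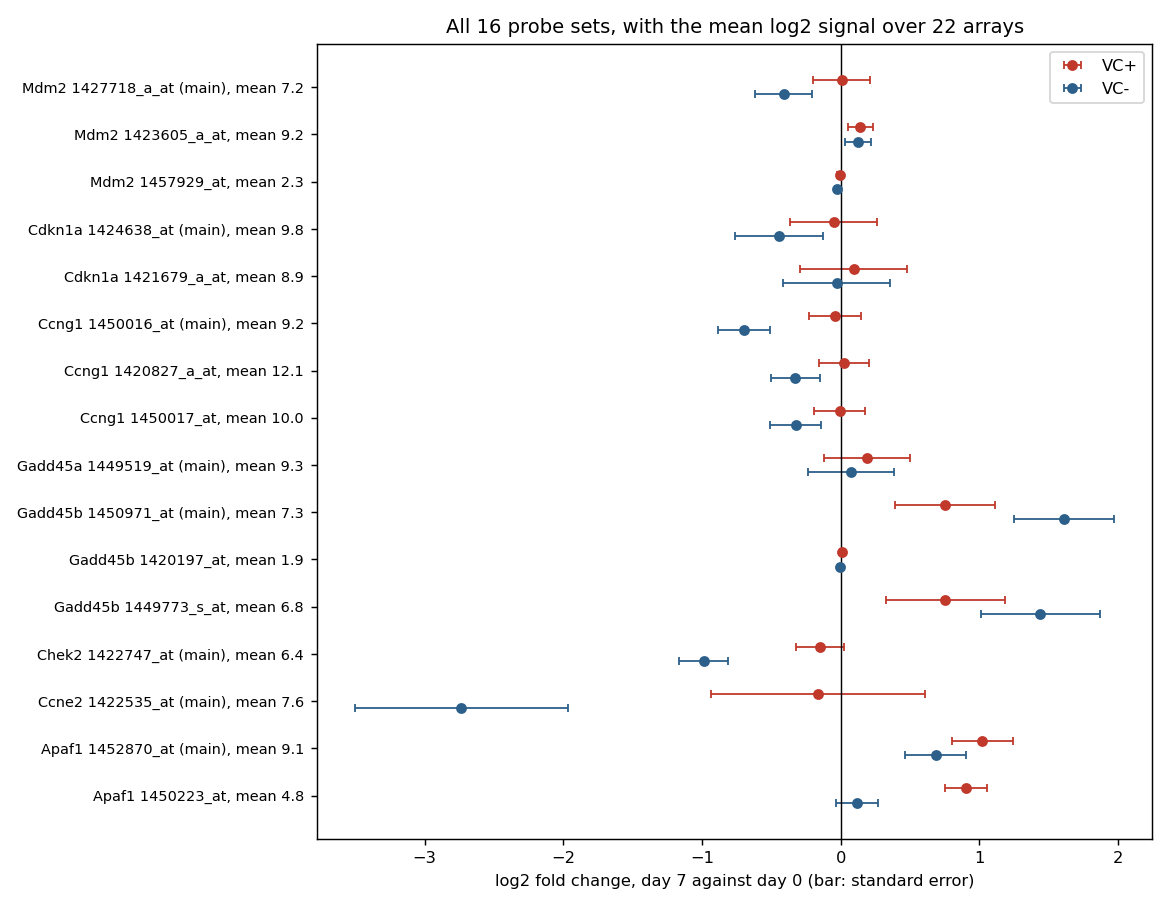
Log2 fold change at day 7 against day 0 (horizontal axis, bars are standard errors) of all 16 probe sets of the 8 genes (rows, with the mean log2 signal over 22 arrays), in VC+ mice (red, upper point) and VC- mice (blue, lower point). The 2 Apaf1 probe sets lie at 1.02 and 0.90 in VC+ mice, and at 0.68 and 0.11 in VC- mice.

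The other genes of the p53 signaling pathway were read from a list of 59, of which 42 were among the genes tested. At day 7 against day 0, 0 of 42 passed in VC+ mice (limma), where 1.75% of the genes tested did, with a median change of 0.00 against -0.02 over all genes tested. In VC- mice 2 were higher and 4 lower, near the 10.6% of the genes tested that passed, with a median of -0.16 against -0.09 over all genes tested. Thbs1, an inhibitor of angiogenesis, was higher by 2.74 ± 0.85 (adjusted p = 0.0468), and Igf1, a growth factor, by 1.56 ± 0.48 (adjusted p = 0.0470). The genes that fell were the mitotic cyclin Ccnb2 (-2.39 ± 0.72), the G1 kinase Cdk6 (-1.20 ± 0.33), Ccng2 (-1.08 ± 0.33) and the DNA repair factor Ddb2 (-0.97 ± 0.30). These genes too are in the study's own list from that contrast. At day 7 against day 2 in VC+ mice, the ribonucleotide reductase subunit Rrm2 (2.94 ± 0.68) and Cdk4 (1.15 ± 0.22) rose, and Zmat3, a p53-induced RNA-binding protein, fell (-0.73 ± 0.18, adjusted p = 0.0218). In that comparison 7.58% of all genes tested passed, near the share of this list. In VC- mice against day 2, Thbs1 rose (3.82 ± 0.85) and Cdk6 fell (-1.18 ± 0.33), again near the share over all genes tested (5.61%).

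Among 28 tested genes of a list of further p53 targets, 2 passed at day 7 against day 0 in VC+ mice and 4 in VC- mice, where 1.75% and 10.6% of the genes tested did. The sulfatase Sulf2 rose in both genotypes (1.96 ± 0.33 in VC+ mice, 1.34 ± 0.33 in VC- mice). The epoxide hydrolase Ephx1 fell in both, with changes of -1.39 ± 0.23 in VC+ mice and -1.33 ± 0.23 in VC- mice. In VC- mice Ddb2 and Ckap2, a spindle protein (-2.15 ± 0.64), fell as well. The median of the list was -0.37 in VC+ mice and 0.08 in VC- mice, against -0.02 and -0.09 over all genes tested. Against day 2, Sulf2 rose (1.23 ± 0.29) and Ephx1 (-1.15 ± 0.20) and Zmat3 fell in VC+ mice, where 7.58% of the genes tested passed. In VC- mice Tigar (-1.36 ± 0.38), a regulator of glycolysis, and Ephx1 (-1.11 ± 0.23) fell, where 5.61% passed.

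The cell death machinery was read from 2 lists. Of 12 tested members of the BCL2 family, the regulators of mitochondrial permeability, 0 passed at day 7 against day 0 in either genotype (limma), where 1.75% of the genes tested passed in VC+ mice and 10.6% in VC- mice, with medians of 0.11 in VC+ mice and 0.14 in VC- mice. Of 17 caspases, apoptosome genes and their inhibitors, 0 passed in VC+ mice and 1 in VC- mice, the caspase substrate Parp1 (-0.75 ± 0.22, adjusted p = 0.0409). Against day 2, Acin1, a chromatin condensation factor of apoptosis, rose in VC- mice (2.01 ± 0.55, adjusted p = 0.0429). With lists of this size, counts of 0 and 1 are near the background.

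In lists of checkpoint and cell cycle genes, 0 genes passed between VC+ and VC- mice at day 7 or in the difference of the day 7 responses (limma). In both comparisons 0% of all 9097 genes tested passed, so these counts say nothing particular to the lists. Of 17 tested genes of the DNA damage checkpoint, 0 passed at day 7 against day 0 in VC+ mice, and 2 fell in VC- mice, the mitotic inhibitor kinase Wee1 (-1.53 ± 0.37) and the clamp subunit Rad1 (-1.03 ± 0.27), near the 10.6% of the genes tested that passed there. Wee1 also fell against day 2 in VC- mice (-1.89 ± 0.37), where 2.15% of the genes tested were lower. Against day 2 in VC+ mice, 3 rose, namely Clspn (1.66 ± 0.38), Brca1 (1.47 ± 0.42) and Mdc1 (0.56 ± 0.16), where 4.76% of the genes tested were higher. Of 32 DNA replication genes, 0 passed in VC+ mice at day 7 against day 0 (median 0.36) and 12 fell in VC- mice (median -1.08), where 5.06% of the genes tested were lower, among them Prim1 (-2.37 ± 0.56), Rfc4 (-2.16 ± 0.50), Pola1 (-2.02 ± 0.50) and Gins2 (-1.74 ± 0.44). Against day 2 in VC+ mice 21 of 32 rose, with a median of 1.30, where 4.76% of the genes tested were higher. Against day 2 in VC- mice, Rfc4 (-1.74 ± 0.50) and Rpa3 (-1.13 ± 0.32) fell, where 2.15% of the genes tested were lower. Of 28 genes of G1 and S phase control, E2f8 (-2.03 ± 0.54), Cdt1 (-1.52 ± 0.44) and Cdk6 fell and Fbxw7 rose (0.87 ± 0.20) in VC- mice at day 7 against day 0. In VC+ mice 0 passed (limma). Over all genes tested, 10.6% passed in VC- mice and 1.75% in VC+ mice. Against day 2, Cdc6 (2.31 ± 0.61), E2f8 (1.77 ± 0.47), Cdt1 (1.47 ± 0.39) and Cdk4 rose in VC+ mice, where 4.76% of the genes tested were higher. In VC- mice Fbxw7 rose (0.71 ± 0.20) and Cdk6 fell, where 5.61% of the genes tested passed.

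**Figure D4:**
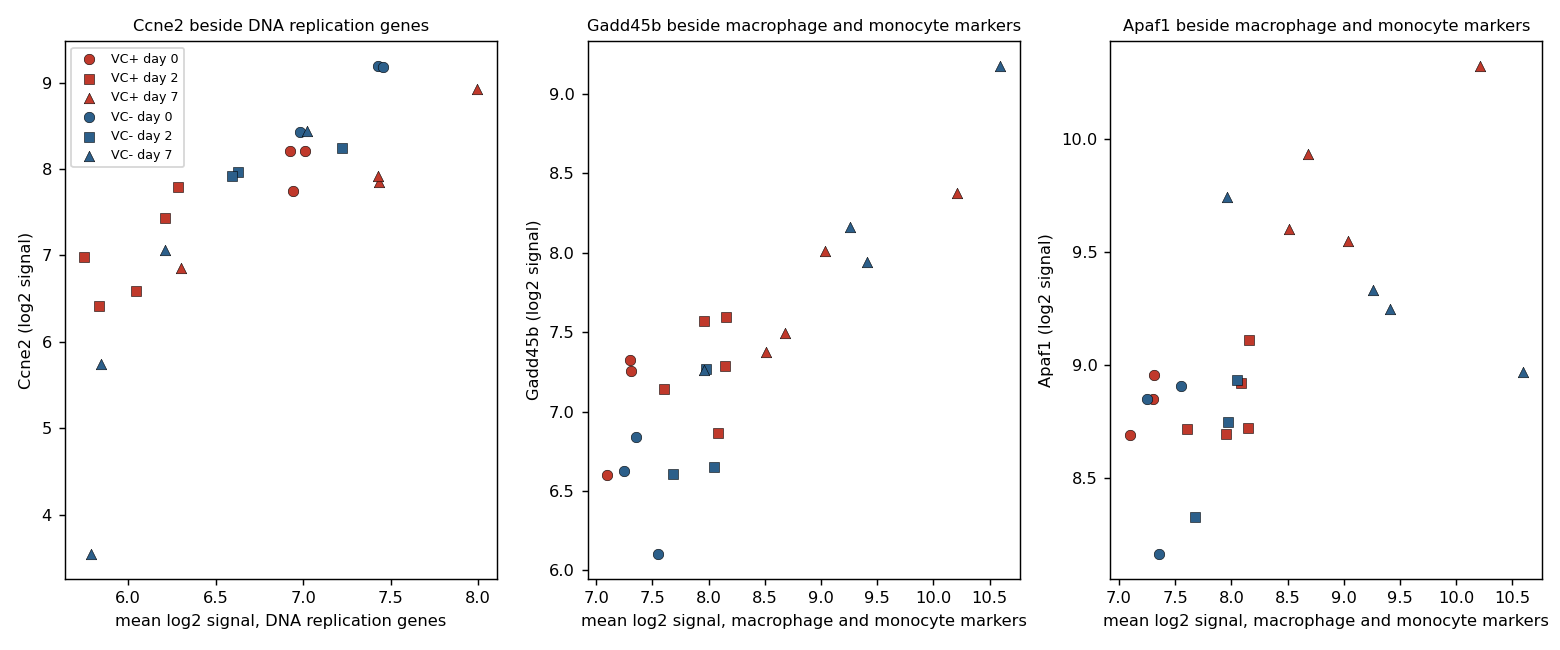
Log2 signal of Ccne2 (left, vertical axis) beside the mean log2 signal of 33 DNA replication genes, and of Gadd45b (middle) and Apaf1 (right) beside that of 12 macrophage and monocyte markers, on each of the 22 arrays. Red points are VC+ mice and blue points VC- mice, with circles for day 0, squares for day 2 and triangles for day 7. VC- day 7 replicate 2 is the lowest point for Ccne2 (3.54) and the highest for Gadd45b (9.18), while its Apaf1 level is 8.97.

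Genes with the most similar pattern were sought by Pearson correlation over the 22 arrays, which share groups and tissue composition, so the values are descriptions only. Ccne2 was most like Gmnn (r = 0.94), Kif20b (0.93) and Prim1 (0.93), and 165 genes had an r over 0.8 with it. Gadd45b was most like Tmem176a (0.94), Madcam1 (0.92) and Ackr1 (0.92), with 273 genes over 0.8. Apaf1 was most like Ms4a4c (0.91), Tnfrsf1b (0.86) and Clca4b (0.85), with 14 such genes, and Ccng1 was most like Ak3 (0.88), Ola1 (0.88) and Arhgap12 (0.87), with 24. For Mdm2, Cdkn1a and Chek2, 0 genes had an r over 0.8. Their nearest genes were Slc31a2 (0.76), Akr1b8 (0.74) and Mbnl2 (0.71) for Mdm2, Zfp414 (0.76), Cuedc2 (0.69) and Tsr2 (0.68) for Cdkn1a, and Cep126 (0.80), Rasgrp2 (0.79) and Lztfl1 (0.79) for Chek2. Gadd45a was most like Inpp5a (0.85), Tsc22d4 (0.81) and Srpx (0.81), the 3 genes over 0.8 for it. The members thus did not share a single pattern. Between pairs of members r ran from -0.76 (Gadd45b and Ccne2) to 0.66 (Chek2 and Ccne2), and for Mdm2 and Cdkn1a it was 0.03.

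**Figure D5:**
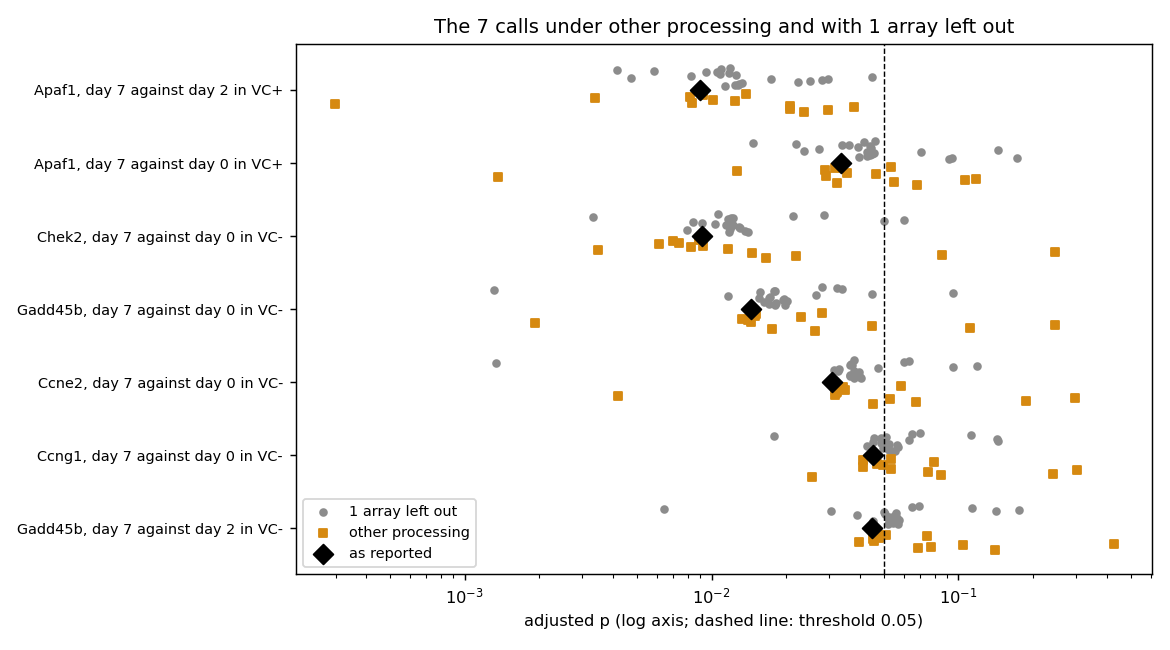
Adjusted p (horizontal axis, log scale) of the 7 calls (rows) as reported (diamonds), with 1 array left out (grey points) and under the other processing settings (orange squares), with a dashed line at the threshold of 0.05. All points for Apaf1 at day 7 against day 2 in VC+ mice lie left of the line, while most points for Ccng1, and for Gadd45b at day 7 against day 2, lie to its right.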

How the data were processed

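RNA from colonic tissue of 22 samples was hybridised to Affymetrix Mouse 430 2.0 arrays. The authors read the arrays in R 2.10.1 and applied GC-RMA, and the deposited values are log2 signals, corrected for background and normalized across arrays (0.580 to 16.76 over 45101 probe sets, array medians 3.41 to 3.55). Arrays carry no read depth, so their number limits the precision. The platform annotation gave a single gene symbol for 34958 probe sets and several for 932, and did not list 9211. Each of 18194 genes was represented by its probe set of widest interquartile range, and the 50% of genes with the widest range were tested, as in the defaults of the authors' filter. The fit had a mean for each of 6 groups (limma 3.58.1, R 4.3.3, two-sided, Benjamini-Hochberg within each of 11 comparisons, threshold 0.05). The script was tested on simulated data with known changes.

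The members and gene lists were chosen with earlier results of these data known. The text names all members, the 3 genes most like each, and, from lists other than cell markers, the 4 passing genes with the largest change at day 7 against day 0 in each genotype and all passing genes of a comparison with 4 or fewer. The labels do not say whether arrays are separate mice, so p-values measure the spread between these samples, which may be technical. Samples were not paired by replicate number, since the methods describe no such pairing. After group means were removed, 18 of 48 same-numbered pairs of arrays correlated above 0.1, against 36 of 152 other pairs. The mean r was 0.08 for same-numbered pairs and -0.03 for the others. Calls that depend on this choice are given with the alternatives below. Alternatives were 14, one of them leaving out each array in turn.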

Additional observations from a re-analysis of the deposited data

Results flagged for a closer look

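In VC+ mice at day 2, Ccng1 was at 9.05 on replicate 4, against 9.57 to 9.70 on the other arrays of that group, a gap that passed Dixon's test for a single distant value. Of 24 gene-by-group tests 1 was past its limit, and chance gives about that many.

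On its main probe set Mdm2 moved in opposite directions at day 2 in the 2 genotypes, by 0.24 in VC+ mice and -0.52 in VC- mice as group means. The difference of 0.75 between these responses did not pass the interaction test (limma, adjusted p = 0.705). Probe set 1423605_a_at, of higher signal, changed by -0.11 in VC+ mice and 0.09 in VC- mice.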

How the results depend on the processing

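No change of a member that passed, or that had an unadjusted p under 0.05, turned its direction under any alternative that kept the member among the genes tested. Mdm2 was kept in 33 of 35 settings and Ccng1 in 34. Probe set 1423605_a_at of Mdm2 changed by 0.09 in VC- mice at day 2, against -0.52 on the main one. Counts of members that passed were less stable. In VC+ mice at day 7 against day 0 the count of 1 became 0 with no variance filter, with only the groups compared, with the replicate number as a block, without the arrays with high Prss2 and with Xist as a covariate, and it was 0 to 1 with 1 array left out. At day 7 against day 2 in VC+ mice it was 1, or 3 with array quality weights. In VC- mice at day 7 against day 0 the count of 4 became 2 with no variance filter, with the replicate block and with Hoxb13 as a covariate, 0 with only the groups compared and without the arrays with high Prss2, and 0 to 4 with 1 array left out. At day 7 against day 2 in VC- mice the count of 1 became 2 with no variance filter and 0 with the probe set of the highest mean, the mean of all probe sets, only the groups compared, the replicate block, no arrays with high Prss2, or Hoxb13 or Xist as a covariate, and it was 0 to 4 with 1 array left out, 4 being without VC- day 7 replicate 1. Between the genotypes at day 0 it was 0, or 1 with array quality weights, and at day 7 it was 0, and 0 to 1 with 1 array left out. For the difference of the day 7 responses it was 0, or 1 with array quality weights, by which Ccne2 passed. The replicate block changed no count of members other than these (adjusted p with it 0.106 for Apaf1 against day 0 in VC+ mice, and in VC- mice 0.0529 for Ccne2 and 0.0752 for Ccng1 against day 0 and 0.105 for Gadd45b against day 2), and for 13 of 22 arrays the best correlated array had the same number. The causes were not tested.

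Over all genes tested, 159 passed at day 7 against day 0 in VC+ mice (46 to 1509 over the alternatives) and 963 in VC- mice (3 with only the groups compared, 2599 without VC- day 7 replicate 1). Against day 2, 690 passed in VC+ mice (187 to 2645) and 510 in VC- mice (0 to 2121). At day 2 against day 0, 5 passed in VC+ mice (0 to 1287) and 1 in VC- mice (0 to 8). Between the genotypes 1, 4 and 0 passed at days 0, 2 and 7 (0 to 686, 0 to 250 and 0 to 1592), and for the difference of the responses 2 passed at day 2 (0 to 340) and 0 at day 7 (0 to 792).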

Other observations

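Immediate early genes and the feedback genes of NF-κB signaling, which are read out within minutes to hours of inflammatory signals, were measured beside Gadd45b. At day 7 against day 0, 2 of 20 tested genes rose in VC+ mice and 6 of 20 in VC- mice, where 1.32% and 5.53% of the genes tested were higher, with medians of 1.31 in VC+ mice and 0.91 in VC- mice. Socs3, the feedback inhibitor of interleukin-6 signaling, rose in both genotypes (6.06 ± 0.60, SE, in VC+ mice, 6.31 ± 0.60 in VC- mice), and so did Zfp36, an mRNA decay factor (1.37 ± 0.32 in VC+ mice, 1.08 ± 0.32 in VC- mice). Junb (2.48 ± 0.52), Egr1 (2.33 ± 0.73), Nfkbiz (2.21 ± 0.44) and Nfkbia (1.72 ± 0.44) rose in VC- mice. Set against day 2, VC+ mice had 6 higher genes of the 20 and VC- mice 4, where 4.76% and 3.45% of the genes tested were higher. Those of VC- mice were Socs3 (5.95 ± 0.60), Nfkbiz (2.26 ± 0.44), Junb (2.18 ± 0.52) and Nfkbia (1.96 ± 0.44).

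Mitosis genes had a mean level of 8.62, 8.15, 6.62 and 8.33 on the VC+ day 7 arrays and of 8.13, 4.79, 4.81 and 6.15 on the VC- day 7 arrays. Of 32 tested, 0 passed in VC+ mice at day 7 against day 0 (limma) and 4 fell in VC- mice, where 5.06% of the genes tested were lower, namely Ncapg (-2.90 ± 0.74), Nusap1 (-2.57 ± 0.73), Ccnb2 (-2.39 ± 0.72) and Bub1 (-2.33 ± 0.73). Against day 2 in VC+ mice 9 of 32 rose, where 4.76% of the genes tested were higher. One VC- day 7 array, replicate 1, was within the range of the VC+ arrays, and the other 3 VC- arrays were lower than all 4 VC+ arrays.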
